A study of Mus musculus with 4 samples.

Results

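The nuclear-encoded subunits of the mitochondrial respiratory chain were followed across stem and progenitor cells of mouse bone marrow. Members were taken by symbol from the array annotation: Nduf genes of the a, b, c, s and v series, the succinate dehydrogenase genes Sdha to Sdhd, all Uqcr genes, the Cox4 to Cox8 series and all Atp5 genes. This gave 85 genes of the 24288 on the array, with 36 in complex I, 4 in complex II, 8 in complex III, 20 in complex IV and 17 in complex V. Ndufa4 was counted with complex IV, where its protein is found. The symbol rule also took in 5 genes that are named like a subunit but are not one (Cox4nb, Cox7a2l, Ndufa4l2, Atp5s and Atp5sl), so 80 of the members are subunits. The rule used no measured value.

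The study measured RNA from 2 sorts of freshly isolated adult bone marrow cells in 2 genotypes, with 1 array for each of the 4 groups. The LSK sort held lineage-negative cells with high c-kit and Sca-1, a gate that contains the haematopoietic stem cells. The second sort, CLP, held lineage-negative cells with low c-kit, low Sca-1 and IL7Rα, a gate that enriches common lymphoid progenitors. Donors were SFRP5-transgenic mice or wild-type (WT) littermates; the sources used here do not give the transgene's promoter, the number of mice, their exact ages or their sex. SFRP5 is a secreted protein that binds Wnt ligands, and the stated purpose was to find genes that respond to its expression. With 1 array per group there is no spread within a group and no test was run, so "higher" and "lower" describe these 4 arrays only.

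The respiratory chain sits in the inner mitochondrial membrane. Complexes I and II pass electrons from NADH and succinate to ubiquinone, complex III passes them to cytochrome c and complex IV to oxygen, while complexes I, III and IV pump protons. Complex V, the ATP synthase, uses the proton gradient to make ATP. A few core subunits are encoded by mitochondrial DNA and all others by nuclear genes whose proteins are imported. Haematopoietic stem cells are known for low respiratory activity and reliance on glycolysis, and committed progenitors for higher mitochondrial output.

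Levels are log2 intensities relative to the 75th percentile of all spots on the same array, so 0 marks that percentile and 1 unit is a 2-fold difference. The percentile itself was an intensity of 277 for both LSK arrays and, of the CLP arrays, 227 for WT and 291 for SFRP5, and no spot was saturated. Between 65.3% and 70.1% of probes were well above background by the scanner software's flag. Replicate spots of a bright probe differed with a median SD of 0.0586 to 0.0706 within an array, which gives an SD of 0.0885 for a difference of 2 arrays. That figure covers spot noise only, not cells, mice or the amplification of 6.1 ng of RNA. Of the sort markers, Kit, Ly6a (Sca-1), Flt3 and Cd34 were at least 2-fold lower in CLP than in LSK in both genotypes and Il7r was at least 2-fold higher, whereas Slamf1 was not well above background on any array. Between genotypes, 4 of the 5 measured sort markers were higher in SFRP5 in each sort, most of all Il7r in LSK (1.40) and Kit in CLP (0.72). Lower in SFRP5 were Ly6a in LSK (-0.33) and Cd34 in CLP (-0.14). Most erythroid, granulocyte and mast cell markers were also much higher in the CLP sort, with exceptions given below.

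Of the 85 members, 82 were well above background on all 4 arrays. The average level over the 4 arrays was at or above the 75th percentile for 78 members and at least 4-fold above it for 66, so these are mostly bright probes. The exceptions were tissue-restricted isoforms of complex IV. Cox7b2 and Cox8c, both testis forms, were above background on no array. Cox8b, a heart and muscle form, was above it only in WT LSK, at -3.66. As the limit on the other array, the higher of its measured level there and the dimmest signal above background there was taken. By this limit Cox8b was at least 2.21-fold lower in SFRP5 LSK and at least 2.09-fold lower in WT CLP than in WT LSK. The 82 others enter the counts of differences between arrays that follow, each by its brightest probe unless another filter or probe choice is named.

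Most members were higher in CLP than in LSK in both genotypes. In WT the median difference was 1.46, or 2.75-fold, and 79 of 82 members were above 0, against 50.6% of all 16019 genes measured. At least 2-fold higher were 68 members against 17.8% of all genes. Of the 82 measured members 1, Atp5sl, was at least 2-fold lower, against 14.3% of all genes. In SFRP5 mice the median was 0.72, or 1.65-fold, with 72 members above 0 (51.5% of all genes). There 17 members were at least 2-fold higher, against 11.5% of all genes. No member was 2-fold lower, against 11.0%. In WT 13 members were within 2-fold (Ndufa4l2, Ndufa7, Ndufa8, Ndufb11, Sdha, Uqcrb, Cox4i2, Cox7a1, Cox7a2l, Ndufa4, Atp5g1, Atp5a1 and Atp5g3), and 16 members (19.5%, against 7.0% of all genes) were at least 2-fold higher in CLP in both genotypes, 16 of the 68 in WT and of the 17 in SFRP5 mice. Bright genes in general leaned the same way: genes at least 4-fold over the 75th percentile had a median of 0.56 in WT and 0.17 in SFRP5 mice. The members stood 0.91 above that median in WT and 0.55 above it in SFRP5 mice. Markers of other cells were higher in CLP as well: all 7 erythroid markers measured were at least 2-fold higher in both genotypes, with medians of 4.58 and 3.58, and their part in the members' differences was not tested.

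The transgenic arrays lay between the WT ones. In LSK cells the members were higher in SFRP5 than in WT, with a median difference of 0.33 (1.26-fold) and 74 of 82 above 0, against 51.3% of all genes. Genes at least 4-fold over the 75th percentile leaned the same way, with a median of 0.22 and 67.9% above 0, and the members stood 0.11 above that median. Ndufa11 and Cox4nb, 2 members, were at least 2-fold higher (6.57% of all genes were), and none of the 82 measured members was 2-fold lower (7.17%). In CLP the members were lower in SFRP5 than in WT, with a median of -0.38 (1.30-fold lower) and 6 of 82 above 0, against 46.6% of all genes. The bright genes had a median of -0.07 there, and the members stood 0.31 below it. No member was at least 2-fold higher there (4.25% of all genes), while Ndufa11 and Cox4nb, 2 members, were at least 2-fold lower (4.31%). By their brightest probes, the other 80 measured members differed by less than 2-fold between genotypes in each sort. The summed erythroid markers, in multiples of the 75th percentile, were at 21.8 for WT and 20.3 for SFRP5 in LSK, and at 569 for WT and 321 for SFRP5 in CLP, so they too were lower in SFRP5 CLP; their part in the members' differences was not tested.

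A single order of the arrays held for most members: WT LSK lowest, then SFRP5 LSK, then SFRP5 CLP, and WT CLP highest. It was seen in 64 of 82 members (78.0%), against 14.0% of all genes above background on all 4 arrays and 22.0% of those averaging at or above the 75th percentile. Other ways of scaling the arrays left between 49 and 62 members in this order. SFRP5 was above WT in LSK and below it in CLP in 70 members (85.4%). That held for 29.2% of all such genes and 35.6% of those averaging at or above the 75th percentile. It also held for 97.5% of cytosolic and 61.8% of mitochondrial ribosomal proteins. The genotype difference in CLP minus that in LSK had a median of -0.74 over the members and was below 0 in 77 of 82. It was below 0 in 52.8% of all such genes and 60.3% of those averaging at or above the 75th percentile. Cytosolic ribosomal proteins had a median of -0.75 with 98.7% below 0, and mitochondrial ones -0.63 with 82.9%. With 1 array per group this difference was not tested.

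**Figure D1:**
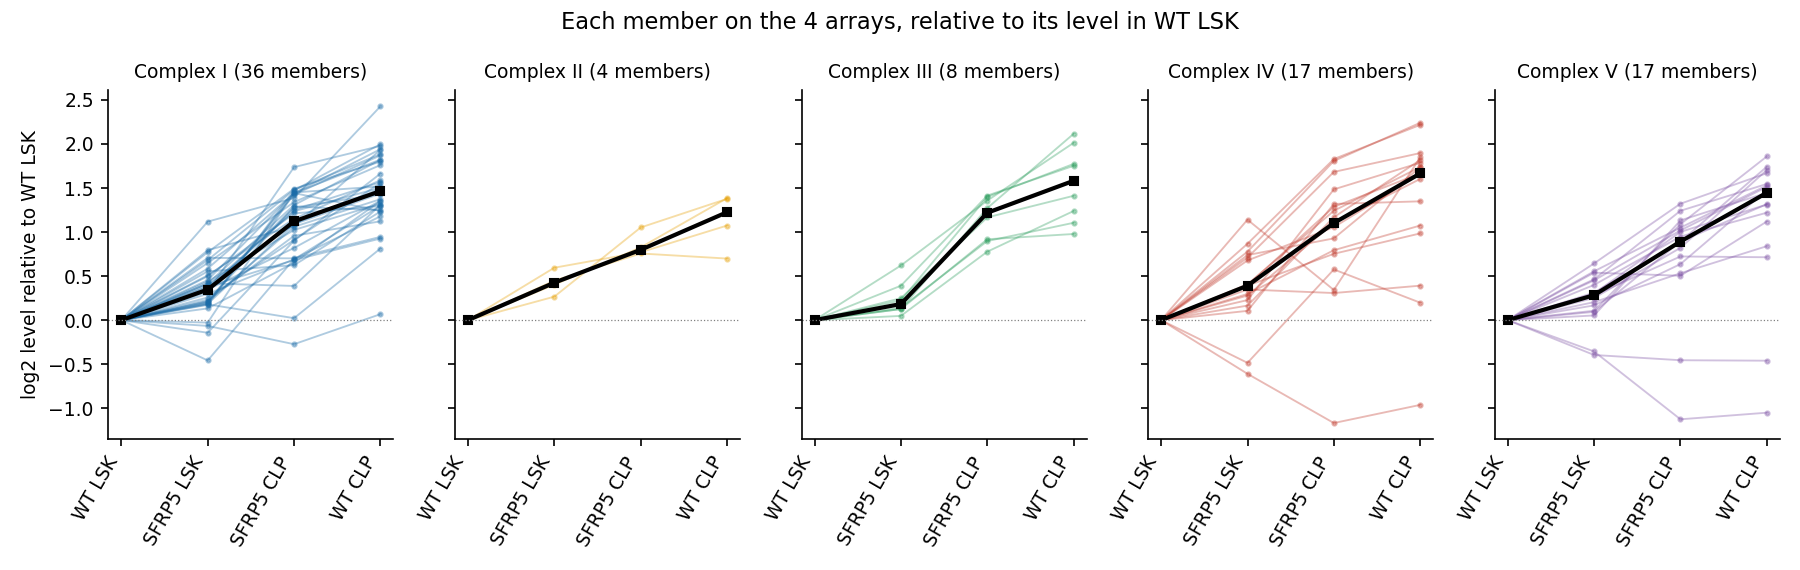
Level of each of the 82 members on the 4 arrays, as log2 relative to the member's own level in WT LSK, with 1 panel per complex. Thin lines are members and the black line is their median; in every complex the median is lowest in WT LSK and higher at each next array up to WT CLP, while single members of complexes I, IV and V run flat or downward.

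Many promoters of respiratory chain genes carry sites for NRF1 and for GABPA (NRF-2), an ETS factor, both regarded as regulators of nuclear genes for mitochondria. The 250 bases before the start were read from RefSeq promoters (GRCm38.p6) for the 69 members with an entry, Cox7b2 and Cox8b among them. A pair of short words was searched on both strands: CATGCGC, part of the NRF1 motif, and CCGGAAG, the ETS core. CATGCGC lay in 10 members (14.5%), against 3.68% of 27025 genes and 4.51% of protein-coding genes. CCGGAAG lay in 12 members (17.4%), against 7.83% and 10.2%. At least 1 of the words was present in 19 members (27.5%) against 14.0% of protein-coding genes. The members' windows also held a median of 14 CpG, against 10 in protein-coding genes, so base composition differs too. Genes for mitochondrial ribosomal proteins had the words in 34.3% of windows and cytosolic ribosomal proteins in 33.3%.

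For each complex, the promoter shown is that of the member with a match whose level differed most between the WT sorts, followed by Cox7a1, a muscle isoform that differed little there. Capitals mark the matches. In Ndufa11 (chr17:56717512-56717761, plus strand) and Cox6a1 (chr5:115348959-115349208, minus strand) CATGCGC matches on both strands and overlaps itself, at -60 and -57 in Ndufa11 and at -162 and -159 in Cox6a1, where -1 is the last base before the start. Cox6a1 also has the ETS word at -16. Sdhb (chr4:140961021-140961270, plus strand) has CATGCGC at -53. Uqcr11 (chr10:80406822-80407071, minus strand) has CCGGAAG at -66, and Atp5e (chr2:174464102-174464351, minus strand) has it at -102. Cox7a1 (chr7:30183921-30184170, plus strand) has neither word in this window.
Ndufa11: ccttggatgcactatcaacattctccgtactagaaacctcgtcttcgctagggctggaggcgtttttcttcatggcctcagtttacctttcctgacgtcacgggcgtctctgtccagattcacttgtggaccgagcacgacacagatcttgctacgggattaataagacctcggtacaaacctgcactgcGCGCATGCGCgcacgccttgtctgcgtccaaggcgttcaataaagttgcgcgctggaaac
Sdhb: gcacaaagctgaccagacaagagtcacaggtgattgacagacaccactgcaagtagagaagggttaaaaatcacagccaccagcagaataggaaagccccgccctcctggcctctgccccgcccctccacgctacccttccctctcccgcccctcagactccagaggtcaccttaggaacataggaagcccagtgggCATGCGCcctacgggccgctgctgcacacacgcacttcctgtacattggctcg
Uqcr11: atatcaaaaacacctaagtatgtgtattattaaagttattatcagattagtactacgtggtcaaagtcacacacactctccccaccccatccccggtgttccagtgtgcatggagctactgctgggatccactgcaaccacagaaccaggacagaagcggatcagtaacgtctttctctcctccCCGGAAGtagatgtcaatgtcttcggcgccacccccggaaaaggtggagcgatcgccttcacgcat
Cox6a1: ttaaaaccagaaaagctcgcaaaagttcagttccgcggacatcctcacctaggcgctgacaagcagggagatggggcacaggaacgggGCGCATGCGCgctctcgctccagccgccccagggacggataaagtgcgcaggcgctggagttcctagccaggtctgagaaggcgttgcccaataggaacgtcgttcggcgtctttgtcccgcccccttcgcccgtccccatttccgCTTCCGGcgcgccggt
Atp5e: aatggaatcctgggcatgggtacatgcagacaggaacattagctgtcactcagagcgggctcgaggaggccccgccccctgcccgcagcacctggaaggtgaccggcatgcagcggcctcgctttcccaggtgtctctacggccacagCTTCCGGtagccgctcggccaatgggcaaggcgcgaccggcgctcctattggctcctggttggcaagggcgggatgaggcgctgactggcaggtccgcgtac
Cox7a1: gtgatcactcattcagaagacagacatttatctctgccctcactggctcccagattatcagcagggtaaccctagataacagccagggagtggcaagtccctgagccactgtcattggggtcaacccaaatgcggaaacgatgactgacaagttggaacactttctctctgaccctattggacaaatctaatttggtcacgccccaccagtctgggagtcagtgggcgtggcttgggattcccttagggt
At least 1 of the words was present in 33.3% of the 12 members with an entry that were at least 2-fold higher in CLP in both genotypes, and in 31.1% of the 45 that were so in WT only. Of the 10 members within 2-fold or lower in WT CLP, 1 had a word. A match is a run of letters and not evidence of a bound factor.

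Complex I, the NADH dehydrogenase, had a median CLP minus LSK difference of 1.46 in WT and 0.72 in SFRP5 mice. In WT all 36 members were above 0 and 32 were at least 2-fold higher. In SFRP5 mice 8 reached 2-fold, among them Ndufs1, Ndufs5, Ndufs6, Ndufs7, Ndufb7, Ndufb9 and Ndufb10. Of the 7 catalytic subunits that hold the flavin and the iron-sulfur clusters, all were at least 2-fold higher in WT CLP, with a median of 1.36, against 1.51 for the 28 accessory subunits.

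Where 4 levels follow with no array named, LSK comes before CLP and, within each sort, WT before SFRP5. Ndufv1, which binds NADH and the flavin, was at 2.33 in WT and 3.10 in SFRP5 LSK and at 4.13 in WT and 3.82 in SFRP5 CLP. Its partner Ndufv2 was at 2.18, 2.56, 3.68 and 3.42 on the same arrays. Both CLP arrays were above both LSK arrays for each of them. Ndufs1, the largest iron-sulfur subunit, was at 1.81, 2.02, 3.05 and 3.26, and so was higher in SFRP5 CLP than in WT CLP, by 0.20. Ndufs3 ran from 3.90 in WT LSK to 5.25 in WT CLP, with 4.24 in SFRP5 LSK and 4.72 in SFRP5 CLP. Ndufs7, which holds the last iron-sulfur cluster before ubiquinone, was at 1.87 in WT LSK and 1.41 in SFRP5 LSK. By brightest probes this was the lowest genotype difference of the complex in LSK (-0.46). In the CLP sorts Ndufs7 was at 3.04 and 2.56. Ndufs8 had the opposite sign in LSK: it was at -0.91 in WT and -0.12 in SFRP5 LSK and at 1.02 in WT and 0.15 in SFRP5 CLP. Its sort difference was therefore 1.93 in WT and 0.27 in SFRP5 mice.

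Ndufa11, an accessory subunit of the membrane arm, was the member that differed most between the WT sorts. It was at 0.11 in WT and 1.23 in SFRP5 LSK and at 2.54 in WT and 1.49 in SFRP5 CLP. The WT sorts differed by 2.43 (5.38-fold) and the SFRP5 sorts by 0.27. By brightest probes it was the only subunit above background on all arrays that was past 2-fold between genotypes. It was 1.12 higher in SFRP5 LSK and 1.04 lower in SFRP5 CLP (a difference of -1.04). Nearest below 2-fold by brightest probes were Cox7a2 in LSK, at 0.87, and Ndufa3 in CLP, at -0.92. Further probes passed 2-fold for Sdhb in LSK (1.43) and for Uqcr10 (-1.19) and Ndufv3 (-1.24) in CLP. A further Ndufb5 probe did so in both sorts, at -1.62 in LSK and -1.67 in CLP.

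Other accessory subunits spread around the median. Ndufb9 differed by 2.0 between the WT sorts and by 1.30 between the SFRP5 sorts. Ndufs6 followed with 1.98 and 1.41. Of the Ndufb series, which lies in the distal membrane arm, WT differences were 1.56 for Ndufb2, 1.43 for Ndufb3, 1.35 for Ndufb4, 1.37 for Ndufb5, 1.57 for Ndufb6, 1.87 for Ndufb7, 1.82 for Ndufb8 and 1.66 for Ndufb10. The series as a whole had a median of 1.56 in WT and 0.90 in SFRP5 mice, with 9 of 10 members at least 2-fold higher in WT. The Ndufa series spread more: Ndufa2 (1.88) and Ndufa10 (1.82) lay near its top and Ndufa9 (1.12) and Ndufa13 (1.23) near its foot, with Ndufa1, Ndufa5, Ndufa6 and Ndufa12 between 1.30 and 1.59. Ndufc1 (1.76), Ndufc2 (1.32), Ndufs4 (1.44) and Ndufv3 (1.94) were past 2-fold as well. The dimmer Ndufv3 probes gave only 0.56 and 0.40 in WT, and -0.42 and -1.41 in SFRP5 mice, where the brightest gave 0.86. Ndufs5 was nearly equal in the 2 genotypes, at 1.08 and 1.05 in LSK and 2.60 and 2.53 in CLP, and gave the largest SFRP5 sort difference of any member, 1.48. At the low end in WT were Ndufa7 (0.81), Ndufa8 (0.93) and Ndufb11 (0.95), the subunits within 2-fold. In SFRP5 mice Ndufa7 was at 2.64 in LSK and 2.48 in CLP, a difference of -0.16, with a genotype difference of -0.79 in CLP. Ndufa3 (-0.03) and Ndufb11 (-0.01) were also level between the SFRP5 sorts. In LSK, besides Ndufs7, Ndufb10 (-0.14) and Ndufs5 (-0.03) were lower in SFRP5 than in WT. The X-linked members Ndufa1, Ndufb11 and Cox7b were 0.50, 0.71 and 0.23 higher in SFRP5 LSK and differed by -0.08, -0.24 and -0.30 in CLP.

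Complex II, succinate dehydrogenase, has 4 subunits and is the 1 complex encoded wholly in the nucleus. Sdha, the flavoprotein, was at 2.86 in WT and 3.31 in SFRP5 LSK and at 3.56 in WT and 3.62 in SFRP5 CLP. Sdhb, the iron-sulfur subunit, was at 1.33, 1.73, 2.71 and 2.15. Both were higher in CLP, but Sdha by 0.70 in WT, within 2-fold, and Sdhb by 1.38. Of the membrane anchors, Sdhc was at 3.50, 4.10, 4.58 and 4.27 and Sdhd at 3.19, 3.46, 4.57 and 4.24. The complex had the lowest SFRP5 sort median of the 5, 0.37, and no subunit there reached 2-fold. Its second Sdhb probe gave 1.43 for SFRP5 minus WT in LSK, where the brighter probe gave 0.40.

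Complex III, the cytochrome bc1 complex, had a median sort difference of 1.58 in WT and 0.85 in SFRP5 mice. By their brightest probes all 8 members followed the common array order. Uqcrc2, a core subunit, is printed many times on the array: its spots averaged 3.07 ± 0.07 in WT LSK (SD, 10 spots), 3.32 ± 0.05 in SFRP5 LSK (10 spots), 4.48 ± 0.03 in WT CLP (9 spots) and 4.23 ± 0.04 in SFRP5 CLP (9 spots). The spots of the 4 arrays did not overlap. This covers spot error only. Uqcrc1, the other core subunit, was at 1.94, 2.33, 3.69 and 3.35. Uqcrfs1, the Rieske iron-sulfur protein, was at 3.91, 4.05, 5.02 and 4.81. The small subunits Uqcr11 and Uqcr10 had the largest WT sort differences, 2.12 and 2.01. Uqcr11 was at 2.63 in WT and 2.76 in SFRP5 LSK and at 4.74 in WT and 3.90 in SFRP5 CLP. By brightest probes it also had the largest genotype difference of the complex in CLP, -0.84. A further Uqcr10 probe gave -1.19 there, and -0.08 between the SFRP5 sorts, so that probe did not keep the array order. In SFRP5 mice Uqcrq (1.17), Uqcr11 (1.15) and Uqcrc1 (1.02) were at least 2-fold higher in CLP, and the lowest were Uqcrh (0.73) and Uqcr10 (0.74). Uqcrb, at 5.44, 5.56, 6.42 and 6.36, was the 1 member within 2-fold in WT. The other small subunits had the same shape, with Uqcr10 at 2.83, 3.45, 4.84 and 4.19, Uqcrq at 3.43, 3.66, 5.20 and 4.83, and Uqcrh at 4.64, 4.69, 5.88 and 5.42. Genotype differences in LSK ran from 0.05 (Uqcrh) to 0.62 (Uqcr10), and Uqcrh, Uqcrb, Uqcr11 and Uqcrfs1 changed sign there under at least 1 other scaling.

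Complex IV, cytochrome c oxidase, had medians of 1.67 between the WT sorts and 0.83 between the SFRP5 sorts over its 17 members above background. In WT 13 were at least 2-fold higher in CLP, and in SFRP5 mice 5: Cox5a, Cox7b, Cox6a1, Cox6b1 and Cox7a1. Cox6a1, the broadly expressed form of subunit VIa, was at 4.43 in WT and 5.21 in SFRP5 LSK and at 6.68 in WT and 6.24 in SFRP5 CLP, a WT sort difference of 2.24. Cox7a2, the broad form of subunit VIIa, was at 2.50, 3.37, 4.72 and 4.33, a difference of 2.22. Cox5a, a small accessory subunit, was nearly equal in the genotypes, at 3.11, 3.21, 4.46 and 4.43. Cox5b was at 3.81, 4.20, 5.47 and 5.09, Cox7b at 2.41, 2.63, 4.19 and 3.89, and Cox8a at 3.81, 4.55, 5.55 and 4.74. All 3 were highest in WT CLP. Cox8a had the largest genotype difference of the subunits of this complex in CLP, -0.81, and its SFRP5 sort difference of 0.19 changed sign under another scaling. Ndufa4 was at 4.79, 5.18, 5.77 and 5.54, within 2-fold in both genotypes. Cox6c, at 4.36, 4.66, 5.43 and 5.15, was just past 2-fold in WT, and Cox7c was at 4.35, 4.63, 5.95 and 5.45.

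Several complex IV subunits exist as a broad and a tissue-restricted isoform, and these pairs did not all move together. Cox4i1, the broad form of subunit IV, was at 5.22 in WT and 5.63 in SFRP5 LSK and at 6.96 in WT and 6.46 in SFRP5 CLP. Cox4i2, known from lung and from hypoxia, ran the other way at -1.02, -1.63, -1.99 and -2.19. It was the 1 subunit that was lower in CLP in both genotypes by more than 0.5, with differences of -0.96 and -0.56, and it was lower in every alternative scaling too. Cox7a1, the heart and muscle form of VIIa, was at -0.54, -1.03, -0.34 and 0.04. Its WT sort difference of 0.20 took the other sign under another scaling, while in SFRP5 mice it was 1.06 higher in CLP. It was the 1 complex IV member higher in SFRP5 CLP than in WT CLP, by 0.38. Cox8b, measured in WT LSK only, was lower in WT CLP and in SFRP5 LSK by the bounds given above, where its broad partner Cox8a was higher. Cox6a2 and Cox6b2 had the direction of their broad partners in all 4 comparisons. Cox6a2, the heart and muscle form of VIa, was at -0.58, 0.13, 1.31 and 1.1, and Cox6b2, the testis form of VIb, at 3.25, 3.92, 4.90 and 4.30. Cox6b1, the broad form, was at 0.80, 0.97, 2.62 and 1.97. Levels of different genes come from different probes and cannot be ranked against each other.

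**Figure D2:**
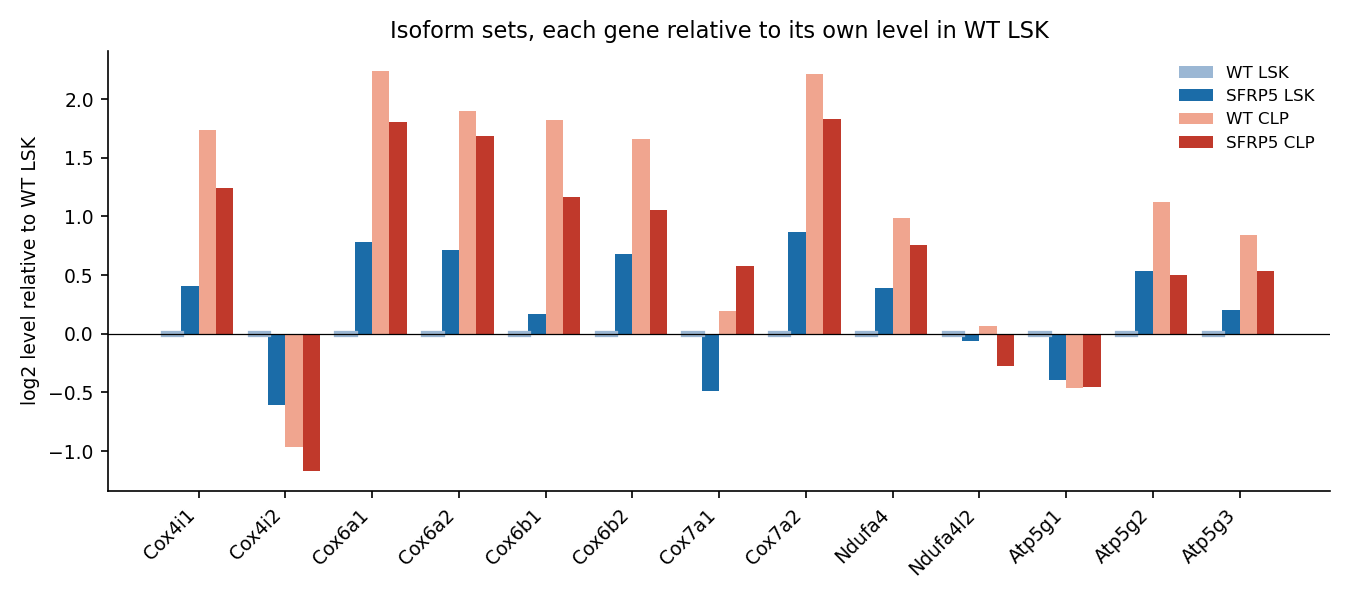
Isoform sets of complexes IV and V (with Ndufa4 and its paralogue Ndufa4l2): bars give the log2 level on each array relative to the same gene in WT LSK, which is 0. Cox4i1 reaches 1.74 in WT CLP while Cox4i2 is at -0.96, and both Cox6a forms are higher in CLP.

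Complex V, the ATP synthase, had medians of 1.45 between the WT sorts and 0.57 between the SFRP5 sorts. In WT 13 of 17 members were at least 2-fold higher in CLP, and in SFRP5 mice 1, Atp5f1 (1.08), the b subunit of the stalk. The catalytic β subunit Atp5b was at 3.81 in WT and 4.27 in SFRP5 LSK and at 5.35 in WT and 5.05 in SFRP5 CLP. Atp5a1, the α subunit, was at 5.77, 6.05, 6.49 and 6.49, and differed by 0.71 between the WT sorts. The γ subunit Atp5c1 was at 3.45, 3.75, 4.76 and 4.45. All 3 were higher in both CLP sorts than in both LSK sorts. Atp5o, the subunit that confers oligomycin sensitivity, was at 0.26, 0.37, 2.12 and 1.35, the largest WT sort difference of the complex at 1.86. Atp5e, the ε subunit, was at 4.87, 5.19, 6.62 and 5.76. It and Atp5j2 had the largest genotype differences in CLP, -0.85 and -0.88. In LSK Atp5d (0.64) and Atp5k (0.55) were the highest. The δ subunit Atp5d was at 1.64, 2.28, 3.31 and 2.96, and of the small membrane subunits Atp5k was at 3.64, 4.20, 5.17 and 4.69 and Atp5j2 at 3.02, 3.27, 4.73 and 3.84. In the stalk, Atp5f1 was at 2.44, 2.50, 3.89 and 3.58, Atp5h at 4.94, 5.39, 6.45 and 5.96, and Atp5j at 2.64, 3.04, 3.86 and 3.59. Each of these was lowest in WT LSK and highest in WT CLP. Atp5l, the g subunit, had 6 probes, whose WT sort differences ran from 1.08 to 1.34.

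Atp5g1, Atp5g2 and Atp5g3 encode the same mature c subunit with different import sequences. Atp5g2 was at 4.77, 5.30, 5.88 and 5.27 and Atp5g3 at 5.16, 5.36, 6.0 and 5.69. Atp5g1 went the other way on its brightest probe, at 6.05 in WT and 5.66 in SFRP5 LSK and at 5.59 in WT and 5.60 in SFRP5 CLP. Its second probe, designed on a RefSeq mRNA, was at 2.43, 3.0, 4.18 and 4.09, a WT sort difference of 1.75. The 2 probes of Atp5g1 thus disagreed in sign in every comparison, and no direction is given for it.

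The members that are not subunits were less uniform. Atp5sl (now Dmac2), named for its likeness to Atp5s and involved in complex I assembly, was at 1.23, 0.87, 0.18 and 0.10, the 1 measured member at least 2-fold lower in WT CLP (-1.05; nearest outside was Cox4i2 at -0.96). Atp5s (now Dmac2l) was at -2.77, -2.60, -1.29 and -2.13. Cox4nb (now Emc8), a subunit of the endoplasmic reticulum membrane complex whose gene lies next to Cox4i1, was at 0.86 in WT and 2.0 in SFRP5 LSK and at 2.70 in WT and 1.20 in SFRP5 CLP. By brightest probes Cox4nb had the largest genotype differences among the 82 measured members, 1.14 in LSK and -1.51 in CLP. It was lower in CLP than in LSK in SFRP5 mice, by -0.80. Cox7a2l, a factor in supercomplex formation, was at 5.93, 6.28, 6.32 and 6.24, and Ndufa4l2, a hypoxia-induced paralogue of Ndufa4, at -3.26, -3.32, -3.19 and -3.53. Neither differed by 2-fold in any comparison. Without these 5, the medians over the 77 subunits above background were 1.49 and 0.74 between sorts and 0.34 and -0.38 between genotypes.

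**Figure D3:**
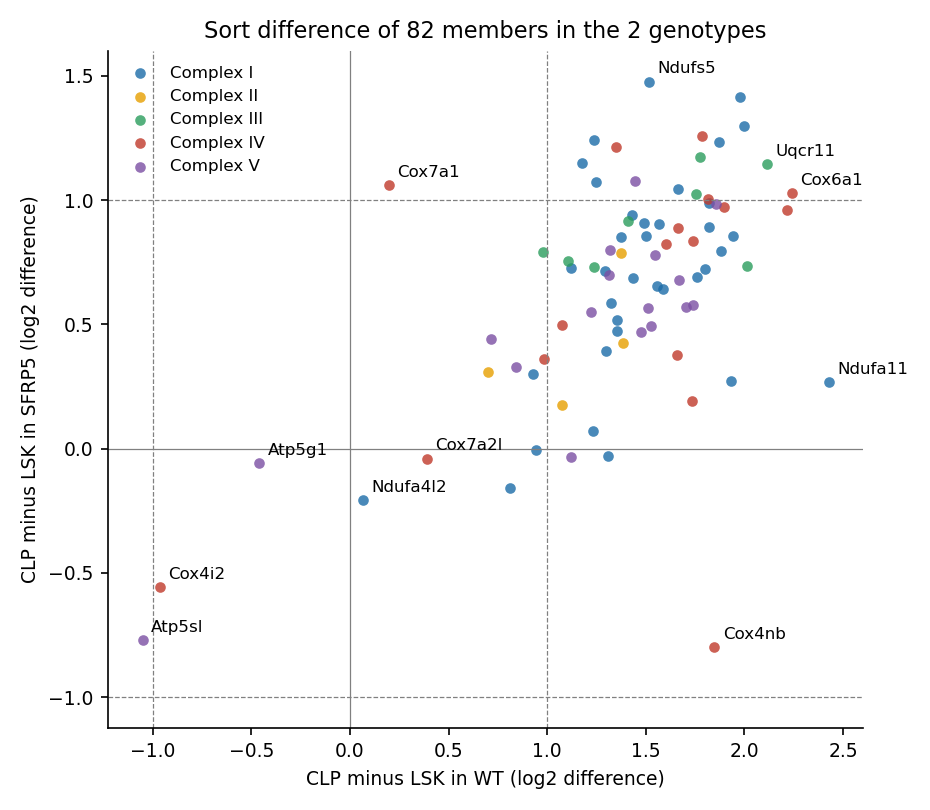
CLP minus LSK difference of each of the 82 members in WT (horizontal) and in SFRP5 mice (vertical), both as log2 differences and coloured by complex; dashed lines mark 2-fold. Most points lie to the right of the 2-fold line in WT and under it in SFRP5 mice, and Cox4i2 and Atp5sl are negative on both axes.

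**Figure D4:**
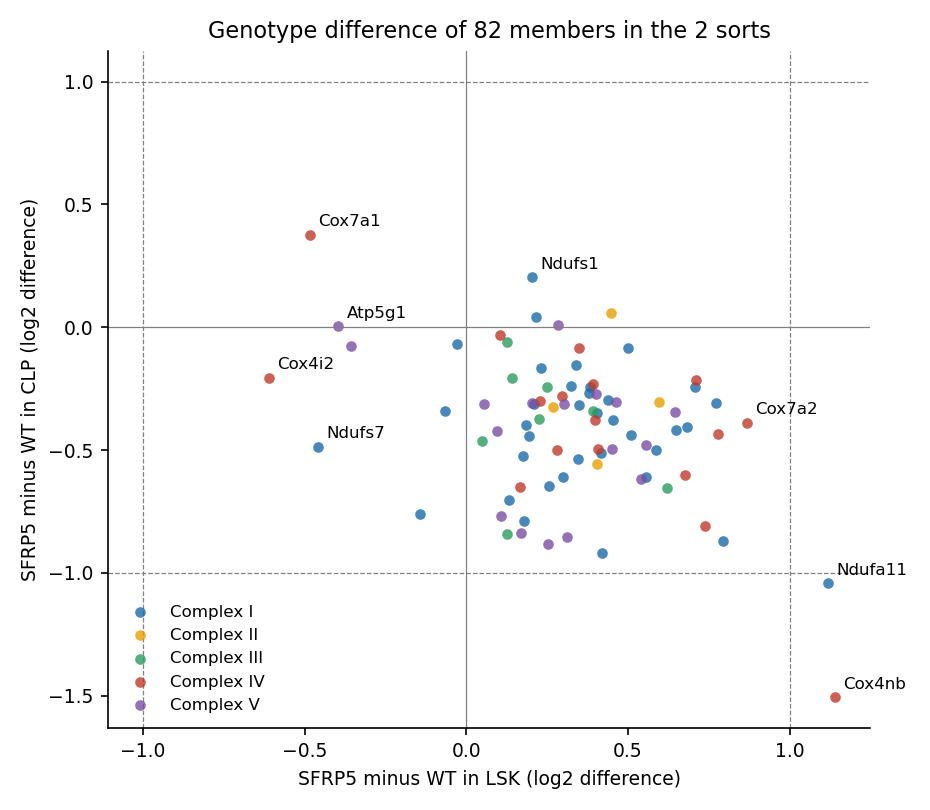
SFRP5 minus WT difference of the same 82 members in LSK (horizontal) and in CLP (vertical), as log2 differences, with dashed lines at 2-fold. The cloud sits in the lower right corner, with 70 members higher in LSK and lower in CLP, and Ndufa11 and Cox4nb at its edge.

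Across members, the 2 sort differences, which share no array, had a Pearson r of 0.582 over 82 genes, against 0.630 over all genes, and the 2 genotype differences an r of -0.391 against -0.048. Genes on an array share its RNA and its scaling, so these values only describe the spread. Medians by complex lay close together in LSK and CLP: SFRP5 minus WT was 0.35, 0.43, 0.18, 0.39 and 0.28 for complexes I to V in LSK, and -0.40, -0.31, -0.36, -0.38 and -0.35 in CLP. The order of the complexes was not tested.

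Where members had several probes, most gave the same direction. Of 43 further probes on 29 members, 41 were above background on all arrays, and 37 of them had the sign of the brightest probe between the WT sorts, 33 between the SFRP5 sorts, 34 between genotypes in LSK and 38 in CLP. The median gap between probes was 0.193 in the WT sort comparison and 0.086 between genotypes in LSK. Disagreement in sign came from Atp5g1, Ndufb5 and Ndufb11 in WT, and from these and Ndufa3, Ndufv3 and Uqcr10 between the SFRP5 sorts. For Ndufb5, 2 probes on Ensembl transcripts were lower in WT CLP, by -0.59 and -0.77, where the RefSeq probes were higher by 1.37 and 1.73. All 85 brightest probes were placed on the chromosome of their gene, whereas 6 further probes were placed on another chromosome (of Atp5j2, Atp5l, Cox5b, Ndufb11, Uqcr11 and Uqcrh). Probe sequences were not used here, so how far a probe also reads a close copy was not tested.

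Genes that work with the members were counted in the same way. Of 8 carriers and subunits that the symbol rule misses, all were at least 2-fold higher in WT CLP, with a median of 1.48, and 4 in SFRP5 mice. Cycs, cytochrome c, was at 2.13 in WT and 2.55 in SFRP5 LSK and at 3.71 in WT and 3.70 in SFRP5 CLP. Cyc1, the cytochrome subunit of complex III, was at 1.87, 2.15, 4.15 and 3.62, and Ndufab1, the acyl carrier protein of complex I, at -2.37, -1.72, 0.28 and -0.33. Of 14 citrate cycle genes, 10 were at least 2-fold higher in WT CLP and 5 in SFRP5 CLP, with medians of 1.26 and 0.51. Citrate synthase (Cs) was at 2.09, 2.85, 3.58 and 3.37, while Idh2 differed by 0.01 between the WT sorts.

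Assembly factors, which help to build the complexes, had lower WT sort medians than the subunits for most complexes: 0.90 for complex I (6 of 14 at least 2-fold higher), 0.41 for complex III (1 of 6; -0.0024 under the authors' scaling) and 0.93 for complex IV (8 of 18), and 1.12 for complex V (2 of 3), but 1.54 for complex II (3 of 4). Coenzyme Q genes had a median of 0.45 (0.04 under the authors' scaling), with 3 of 11 at least 2-fold higher. The assembly lists of complexes I and IV had LSK genotype medians of -0.04 and -0.08, where the members had 0.33; the latter became 0.0076 under quantile normalization and 0.02 under cyclic loess. No probe was found for the 13 subunits encoded by mitochondrial DNA, so those subunits were not analysed here.

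Regulators of mitochondrial biogenesis had a sort median near 0, unlike the members. Between genotypes in LSK their median was 0.28, with 13 of 16 above 0, close to the members' 0.33, but in CLP it was 0.26, where the members had -0.38. Of the 16, 1 was past 2-fold upward in WT CLP and 1 downward, with a WT sort median of -0.00, which lay between -0.41 under the authors' scaling and 0.09 with normexp background correction. Nrf1 was at 1.87 in WT and 1.63 in SFRP5 LSK and at 2.33 in WT and 2.27 in SFRP5 CLP, and Gabpa at 1.45, 1.88, 1.85 and 2.11. Tfam, the packaging and transcription factor of mitochondrial DNA, was at 0.28, 0.67, 1.21 and 0.78 and kept the members' array order. Esrra, a nuclear receptor that drives respiratory genes, did not: it was at -1.19, -0.97, -1.95 and 0.31. Ppargc1a, its coactivator, was at -3.21, -0.92 and -3.40, and not well above background in SFRP5 CLP.

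Mitochondrial ribosomal proteins resembled the members, with medians of 1.37 (61 of 76 at least 2-fold higher) and 0.64 between sorts and 0.30 and -0.38 between genotypes. The array order of the members held for 55.3% of them. Cytosolic ribosomal proteins had 0.82 and 0.10 between sorts and 0.32 and -0.44 between genotypes, and 68.4% kept the order. Their SFRP5 sort median fell below 0 under quantile normalization (-0.08), cyclic loess (-0.13) and the authors' scaling (-0.09). Ribosomal protein genes therefore had the same signs of the genotype medians as the members. Glycolysis genes had 0.67 and 0.29 between sorts; the former was 0.09 under quantile normalization, 0.13 under cyclic loess and 0.26 under the authors' scaling, and the latter 0.10 under each. In LSK they had a genotype median of 0.48, with 14 of 15 above 0, but 0.04 in CLP.

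**Figure D5:**
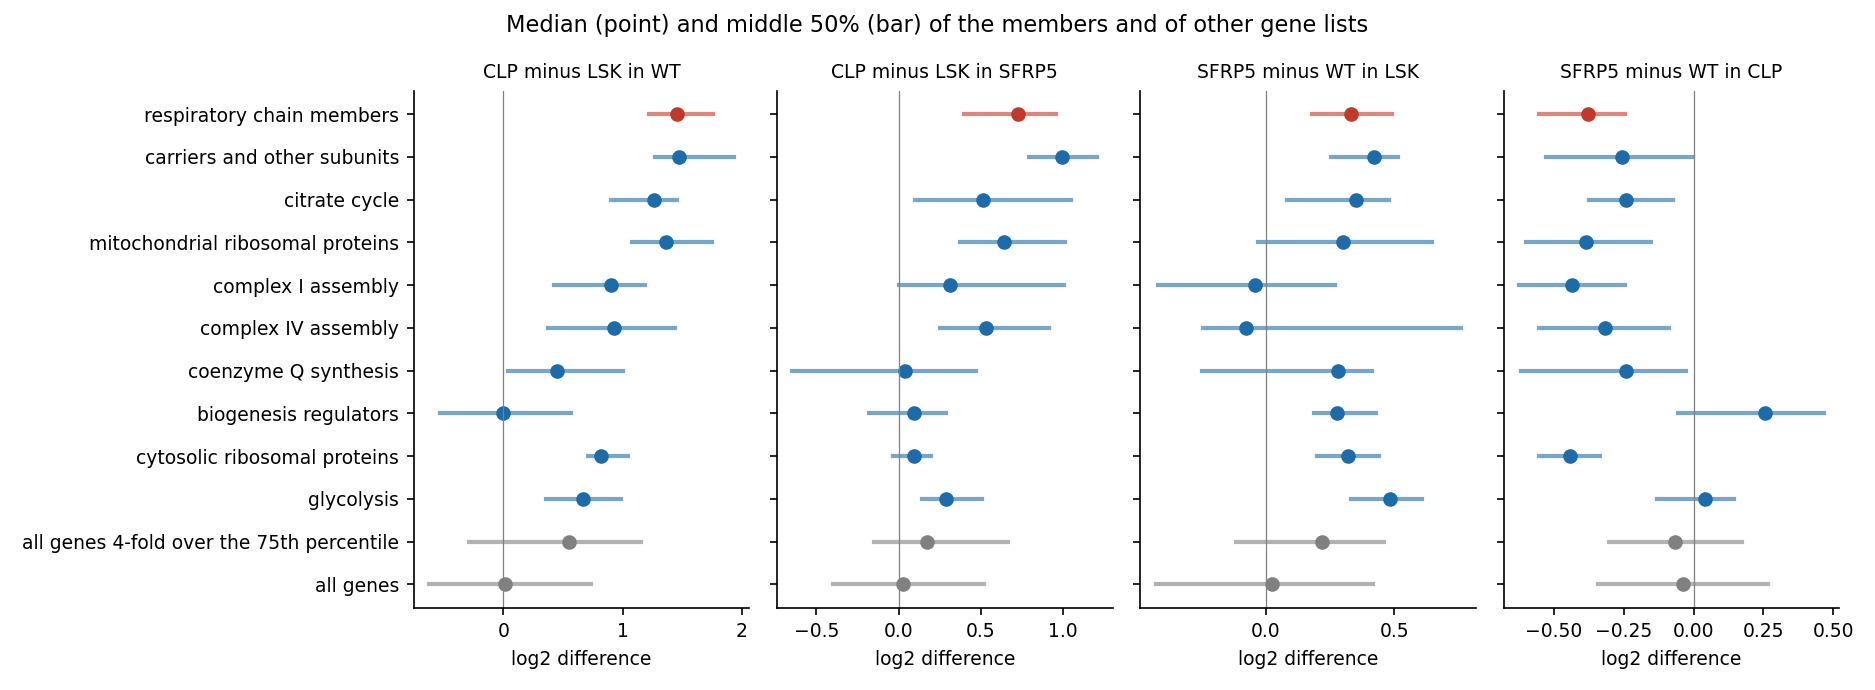
Median (point) and middle 50% (bar) of log2 differences for the members (red), other gene lists (blue) and all genes (grey) in the 4 comparisons; each panel has its own axis. The members sit at 1.46, 0.72, 0.33 and -0.38, with mitochondrial ribosomal proteins close to them.

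Marker genes of further cell types differed between the sorts as well. Beside the summed erythroid level given above, all 8 erythroid markers were lower in SFRP5 CLP than in WT CLP. Summed granulocyte and monocyte markers were at 55.5, 77.9, 285 and 319, with 6 of 7 at least 2-fold higher in WT CLP and 4 of 7 at least 2-fold higher in SFRP5 LSK than in WT LSK. Between the SFRP5 sorts 5 of 7 were at least 2-fold higher in CLP and 1, Ngp, was at least 2-fold lower (-1.01). Csf1r was level between sorts, at -0.09 in WT and -0.15 in SFRP5 mice. Mast cell and basophil markers summed to 1.30, 1.34, 52.2 and 36.3. Lymphoid markers summed to 73.5, 121, 189 and 257, and Ebf1 was above background only in CLP. The LSK sums were mostly Dntt, at 6.09 in WT and 6.82 in SFRP5. Of the 7 lymphoid markers measured in LSK, 4 were higher in SFRP5 than in WT. The other 3, Pax5 (-1.74), Igll1 (-1.36) and Rag1 (-0.21), were lower. Proliferation genes were higher in CLP too, with sums of 58.5 and 68.3 in LSK and 151 in both CLP sorts. Their median was 1.62 in WT, with 6 of 6 at least 2-fold higher, against 17.8% of all genes. In SFRP5 mice it was 1.13, with 3 of 6 at least 2-fold higher, against 11.5%. Between genotypes the median was 0.30 in LSK, with 6 of 6 above 0, and -0.13 in CLP, with 2 of 6 above 0. In these bulk arrays more cells of a type and more RNA per cell cannot be told apart, and the part of these markers in the members' differences was not tested.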

How the data were processed

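The members and gene lists were chosen with earlier results of these data known. RNA of 4 samples was hybridised in 1 colour to 4 arrays on 1 slide. The deposited scanner files hold spot intensity, background-subtracted per the file headers by the scanner software (Agilent Feature Extraction, version 10.10.1.1; the submitters' processing notes give 10.10), and probes are annotated on mm9. In the signal table deposited by the authors each array's intensity is multiplied by 1 factor (4.91 to 6.42). The other columns used, scanner flags for outliers and for signal well above background, are as deposited. No column of another sample was found.

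The log2 processed intensity minus each array's 75th percentile was used. Control spots and flagged outlier spots (128 to 160 per array of 59305) were left out, spots of a probe averaged, and the brightest of a gene's probes kept. A gene was measured when well above background on both arrays (at least 50% of a probe's spots). Calls are at 2-fold. Each comparison is between single arrays and was not tested, so differences have no p-value. A fit of genotype plus sort, which leaves 1 residual degree of freedom, was not run. Symbols were updated through RefSeq (GRCm38.p6).

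Alternatives were normexp (limma 3.58.1, offset 50, on the median signal because the mean signal is not in the files used here), quantile, cyclic loess, the authors' scaling, other filters, the mean of probes, and RefSeq mRNA probes and a background of genes 4-fold over the percentile, both chosen after seeing the data. The computation of the differences was checked on simulated data with known differences. R 4.3.3 and Python 3.11.15 were used.

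Members named with values were the 2 highest and 2 lowest of each complex in each comparison, those past 2-fold (in WT CLP through the 13 that were within it), those not above background, catalytic subunits and isoform sets. Some others were named after their values were seen. Some genes that this rule names are not reported here.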

Additional observations from a re-analysis of the deposited data

Results flagged for a closer look

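The genotype difference of the members had opposite signs in the 2 sorts. SFRP5 was above WT in LSK (median 0.33 on the log2 scale) and below it in CLP (median -0.38), so the difference in CLP minus that in LSK had a median of -0.74, below 0 in 77 of 82 members. Exceptions were Cox7a1 (0.86), Cox4i2 (0.40) and Atp5sl (0.28), with Ndufs1 at 0.00, and the brightest probe of Atp5g1 (0.40), whose second probe had the opposite sign. Under other ways of scaling and filtering the arrays the median stayed between -0.45 and -0.70 where it changed, with 70 to 78 members below 0. The pattern was not particular to the members: cytosolic ribosomal proteins had a median of -0.75 with 98.7% below 0, and mitochondrial ones -0.63 with 82.9%. With 1 array per group this difference was not tested.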

How the results depend on the processing

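Direction of the median over the members was kept in all 4 comparisons under every alternative run, but its size depended on the scaling. Under quantile normalization, cyclic loess and the authors' scaling respectively, the median log2 difference was 0.95, 1.01 and 1.05 for CLP minus LSK in WT (1.35 with normexp), 0.50, 0.53 and 0.54 in SFRP5 mice, 0.19, 0.16 and 0.20 for SFRP5 minus WT in LSK, and -0.22, -0.27 and -0.28 in CLP. The authors' factors move the median of all genes to -0.11 in LSK and 0.06 in CLP between genotypes, and to -0.40 in WT and -0.16 in SFRP5 mice between sorts. Relative to genes at least 4-fold over the 75th percentile, the members' WT sort median lay between 0.85 and 0.94 under every alternative, and the SFRP5 one between 0.51 and 0.55. Members at least 2-fold higher in CLP numbered 39, 42 and 44 in WT and 7, 8 and 7 in SFRP5 mice under the 3 scalings. Relative to the 75th percentile they numbered 68 in WT. In SFRP5 mice they were 17 of 82 (20.7%) on that scale, against 11.5% of all genes. Whether the SFRP5 share stays above that of all genes under the 3 scalings was not tested. At least 2-fold lower in WT CLP were 0 with normexp or without the look-alikes, and 2 with cyclic loess, the authors' scaling or no filter. SFRP5 minus WT in LSK gave 1 member higher with normexp, the authors' scaling or without the look-alikes, and 1 lower with no filter. In CLP 1 member was lower with normexp, quantile normalization, the authors' scaling or without the look-alikes, and 10, 10 and 12 were above 0 under the 3 scalings. At 1.5-fold the counts were 16 higher and 1 lower in LSK and 20 lower in CLP between genotypes, 2 lower in WT CLP, and 50 higher and 2 lower in SFRP5 CLP. For the counts under the alternatives and at 1.5-fold the shares of all genes are not given here, so no excess is read from them. The median of complex III between genotypes in LSK, 0.18, became -0.012 under cyclic loess. For these changes the cause was not tested. Of single members, 13 took the other sign between genotypes in LSK under at least 1 scaling, 6 in CLP, and 3 in each sort comparison. The number of arrays limits the precision. No paired analysis was possible because each value is a difference of 2 single arrays and comes from no test; an additive fit over the 4 arrays was not run.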
